A study of Homo sapiens with 208 samples.

Results

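The ETS family holds transcription factors that share a DNA-binding domain, and 9 of its genes were followed here, as 9 of the 17252 genes that the arrays read. They were chosen by their RefSeq accessions, which named 16 probes. ETV1, ETV4 and ETV5 form the PEA3 group, ETS1 and ETS2 carry a site for the kinase ERK, ELK1 and ELK3 are ternary complex factors that bind DNA beside serum response factor, and ELF3 and EHF are ETS factors of epithelial cells. All 9 genes passed the filter on dim probes.

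PC9 cells come from a human lung adenocarcinoma, and their growth depends on a mutated, constantly active EGF receptor. PC9M2 (PC9GRM2 in the sample labels) is a gefitinib-resistant line that was isolated from PC9 after long growth in the drug, and the labels describe it as 1 line picked among screened clones without MET amplification and without the common resistance mutation of the receptor. Both lines carry the activating deletion of EGFR, and all groups were starved for 48 h before RNA was followed over 24 h. In each line 1 group had no treatment, 1 had 0.5 µM gefitinib, an inhibitor of the EGF receptor kinase, from 2 h before time 0, 1 had 100 ng/ml EGF, the ligand of the receptor, from 0 h, and 1 had both agents. Each of these 8 courses had 26 arrays, 1 per time point, so time points took the place of replicates. The p-values therefore measure the spread between time points of 1 course and not between independent cultures.

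Growth factor receptors act on ETS factors in more than 1 way. Activated RAS and RAF lead to ERK, which phosphorylates ETS1, ETS2, ELK1 and ELK3 directly. ERK signaling also relieves repression of ETV1, ETV4 and ETV5 by the factor Capicua (CIC), so that the RNA of the PEA3 group is widely used as a readout of the pathway. ELF3 and EHF belong to a branch that is tied to differentiation of epithelia.

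Before the results, 2 arrays have to be set apart. Across 300 genes that respond to gefitinib, the array labelled PC9M2, EGF, 0.5 h had a drug signature of 0.35, within the range of 0.285 to 0.72 of the arrays with drug, and its partner labelled EGF and gefitinib had -0.404, within the range of -0.883 to -0.298 of the arrays without drug. ELF3 showed the same, with 12.70 on the array labelled EGF and 11.51 on the array labelled EGF and gefitinib, against 11.27 untreated and 12.73 with gefitinib alone at 0.5 h. The EGF effects in PC9M2 were therefore also computed without this time point. The untreated PC9M2 array at 11 h stood apart from its neighbours and was left out in a further alternative. That array sets the highest untreated PC9M2 value of ETV5 and of ETS2 and the lowest of ETV4 given below. The lines shared 0 of 52 slides and 0 scan days, so cell line and period of scanning cannot be told apart. A slide carried all 4 groups of a line for a single time point, so every effect of gefitinib or EGF was measured within slides. The epithelial markers KRT8, KRT18, KRT19, EPCAM and CDH1 were well above background on all 208 arrays. Of the lung adenocarcinoma markers, NAPSA was above background on 207 arrays, SFTPB on 89 and the lung factor NKX2-1 on 13. Of the markers of other cell types, PTPRC (1 array) and COL1A2 (9 arrays) were near background, while CD68 was above background on 208 arrays and PECAM1 on 207.

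Gefitinib changed all 9 genes in both lines, though ELK1 and EHF not under every alternative. In each line the 3 PEA3 genes, ETS1, ETS2, ELK1 and ELK3 were lower with the drug and ELF3 and EHF were higher. In PC9 limma called 9 of 9, where it called 72.2% of all tested genes, 37.0% lower and 35.2% higher. In PC9M2 it called 9 of 9 against 66.6% of all genes, 34.0% lower and 32.6% higher. With so many genes called, a total of 9 of 9 says little, and the sizes separate the members. By direction 7 of 9 were lower and 2 higher in each line. The members were chosen with earlier results of these data known, so nothing is drawn from these counts. The median log2 difference over the members was -1.44 in PC9 and -0.70 in PC9M2, and over all tested genes it was -0.02 and -0.01. All values below are log2 of quantile normalised intensity, differences are given ± SE over 26 time points, and adjusted p-values are those of limma over 13458 genes with a threshold of 0.05. Levels of different probes were not compared. The intensities come from whole cultures, so a change in some of the cells and a change in every cell cannot be told apart.

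**Figure D1:**
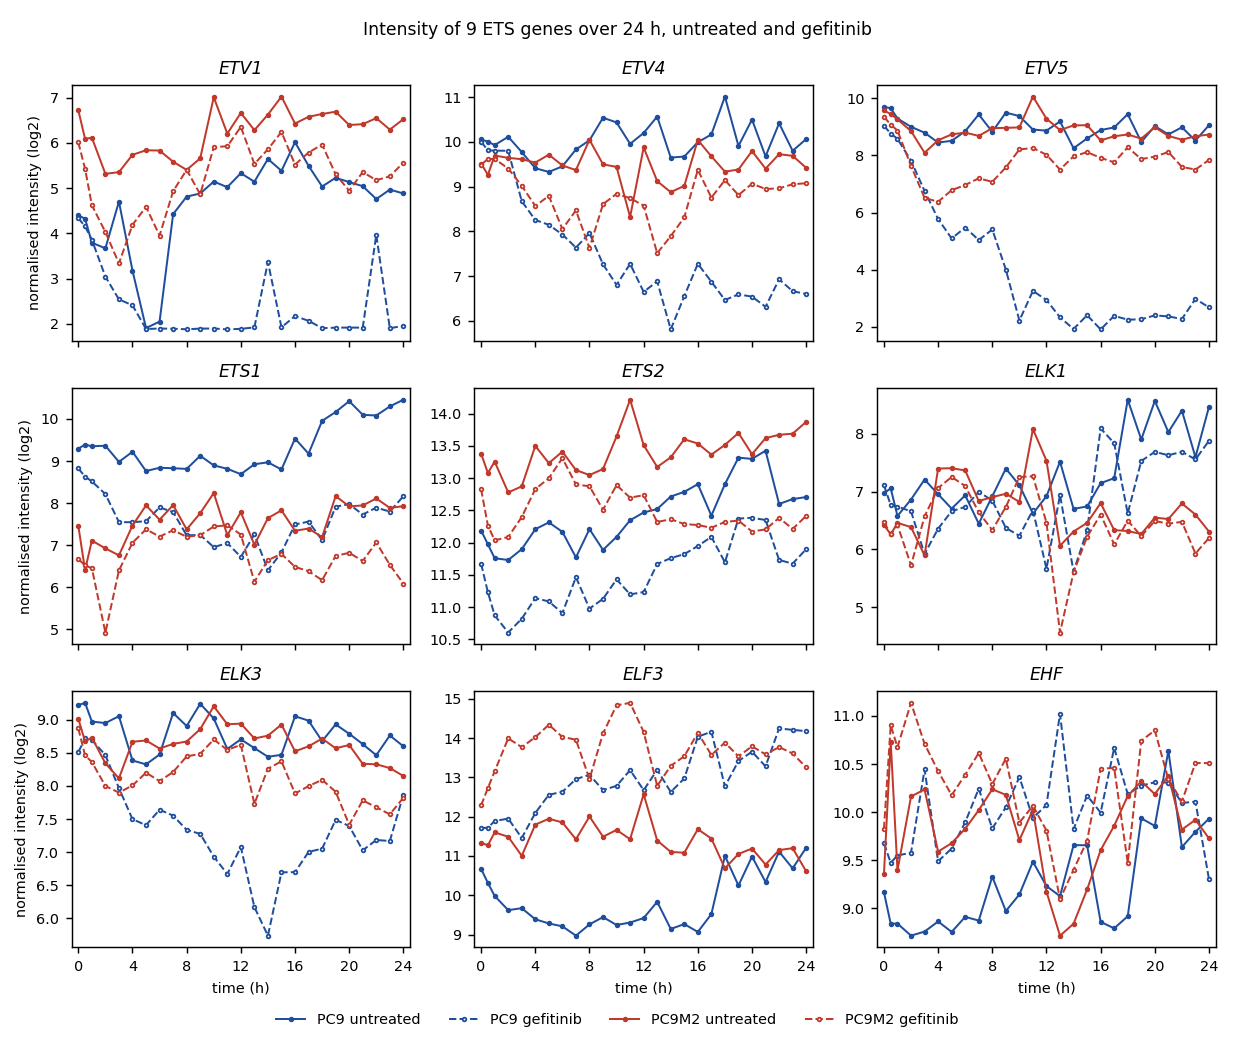
Normalised intensity (log2) of each of the 9 genes against time in hours, 1 point per array, in untreated (solid) and gefitinib (dashed) courses of PC9 and PC9M2. ETV5 left its untreated range within hours in PC9 and ended at 2.68, below background, while in PC9M2 its lowest value was 6.38, and ELF3 ran higher with gefitinib in both lines.

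In PC9, ETV5 had the largest mean difference of the PEA3 group on the normalised intensities, though not with normexp background correction, where ETV4 fell by 1.54 and ETV5 by 1.34. The untreated level of ETV5 in PC9 ran from 8.25 through a median of 8.94 to 9.70. With gefitinib it started at 9.04 at 0 h and sank to a median of 2.96 and a lowest value of 1.91 at 16 h. Only the first hours of the treated course reached the untreated range. In PC9M2, ETV5 ran from 8.09 through 8.83 to 10.06 without treatment, which was close to PC9 on the probe used. With gefitinib it ran from 6.38 through 7.86 to 9.35, so on this probe it was reduced and remained well above background on all 26 arrays. The mean difference was -4.80 ± 0.41 in PC9 (adjusted p = 4.63e-11), against -1.12 ± 0.10 in PC9M2 (adjusted p = 2.12e-10), and the gene was lower at all 26 time points in both lines. In PC9 the treated arrays were above background at 11 of 26 time points and at none from 10 h on, so the late values have no order among themselves and the size in PC9 depends on how signals near background are treated. It was -3.91 with a floor of 16 and -1.34 with normexp background correction, both called (adjusted p = 1.79e-12 and 9.16e-14), while in PC9M2 it was -0.62 with normexp. The second ETV5 probe gave -4.10 in PC9 and -1.39 in PC9M2. In PC9M2 with gefitinib that probe was above background on 24 of 26 arrays, with a lowest value of 2.45, and between the untreated lines it differed by -0.59. Over 15 to 24 h, ETV5 on the probe used was 17.8-fold lower with gefitinib in PC9. For this, the lowest signal well above background on each array was taken as the treated level. That signal is the lowest of any probe and need not be the limit for ETV5, so the value is an estimate and no strict bound. ETV1 at 5.13 in untreated PC9 at 20 h was not above background, while the level used here averaged 4.72.

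The courses of ETV5 diverged in time as well. In PC9 the gefitinib difference was -1.87 ± 1.17 (SD, n = 8) over 0 to 6 h. Over 15 to 24 h, with 0 of 10 treated arrays above background, it has only the estimate given above. In PC9M2 the difference was -1.21 ± 0.79 (SD, n = 8), -1.38 ± 0.36 (SD, n = 8) and -0.82 ± 0.23 (SD, n = 10) over 0 to 6 h, 7 to 14 h and 15 to 24 h. The late minus early change was called in PC9 (adjusted p = 2.23e-09), and its size ranged with the treatment of dim signals, -3.00 with a floor of 16 and -0.67 with normexp. In PC9M2 it was 0.39 ± 0.23 and not called (adjusted p = 0.182). Late minus early changes, here and below, were not tested with standard errors inflated for the correlation of successive time points. ETV5 was at least 2-fold lower from 2 h on in PC9. In PC9M2 no time point began such a lasting stretch, although 14 of 26 time points were at least 2-fold lower, the lowest at 4 h with -2.15.

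On the normalised intensities ETV4 followed the same order at a smaller size. Without treatment it ran from 9.33 through 10.00 to 11.01 in PC9 and from 8.32 through 9.51 to 10.04 in PC9M2. With gefitinib it ran from 5.81 through 7.09 to 10.00 in PC9 and from 7.51 through 8.82 to 9.62 in PC9M2. In PC9 the treated and untreated courses were close at 0 h, with a difference of -0.05, and the gene was at least 2-fold lower from 3 h on. The mean difference was -2.50 ± 0.25 in PC9 (adjusted p = 9.55e-10), 5.65-fold. It was -0.70 ± 0.11 in PC9M2 (adjusted p = 3.99e-06), 1.62-fold. ETV4 was well above background on all 208 arrays, but the sizes still depended on background correction. With normexp the mean difference was -1.54 in PC9 and -0.49 in PC9M2, both called (adjusted p = 1.3e-09 and 2.67e-06). The effect grew from -0.71 ± 0.59 (SD, n = 8) over 0 to 6 h to -3.44 ± 0.50 (SD, n = 10) over 15 to 24 h in PC9, a change of -2.73 ± 0.27 (adjusted p = 4.13e-09). With normexp the change was -1.59 (adjusted p = 2.99e-08). In PC9M2 the effect was deepest in the middle window, -1.04 ± 0.82 (SD, n = 8), and the late minus early change of -0.11 ± 0.26 was not called (adjusted p = 0.776).

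ETV1 was often below background in PC9, where 21 of 26 untreated and 5 of 26 gefitinib arrays were above it. The untreated course of PC9 ran from 1.91 through 4.92 to 6.02 and the treated course from 1.88 through 1.92 to 4.34. In PC9M2 the gene ran from 5.32 through 6.34 to 7.02 untreated and from 3.34 through 5.38 to 6.35 with gefitinib, above background on 26 and 24 arrays. Its mean difference was -2.23 ± 0.25 in PC9 (adjusted p = 8.45e-09), against -0.997 ± 0.092 in PC9M2 (adjusted p = 2.29e-10). With 21 of 26 treated PC9 arrays not above background, the PC9 value is no exact size. It was -0.82 with a floor of 16 and -0.19 with normexp, both called (adjusted p = 1.59e-07 and 5.08e-07), and in PC9M2 it was -0.22 with normexp. Over 15 to 24 h the fall in PC9 was 1.39-fold by the estimate used for ETV5, which is no strict bound. The untreated level was itself near background, with 8 of 10 arrays above it, and no treated array was above it. The time course of ETV1 in PC9M2 had its largest drug difference early, -2.02 at 3 h, and the treated and untreated arrays met at 8 h with a difference of 0.00.

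A promoter sequence was at hand for 6 of the 9 genes, in 14 windows that span 250 bases before to 50 bases after a transcription start (RefSeq, GRCh38.p14), and for none of ETV4, ETV5 and ETS1. Searched on both strands were the ETS core CGGAA, the longer ETS site CCGGAAGT, which contains it, the AP-1 site TGANTCA, the 4 octamers TGAATGAA, TGAATGGA, TCAATGAA and TCAATGGA that CIC is known to bind, and the CArG box of serum response factor. The ETS core lay in 4 of the 14 windows and in 34.9% of all 35116 promoters, and 1 window held a CIC octamer, as did 3.77% of all promoters. The windows with the core belonged to 2 genes, ETV1 and ETS2. Those of ETV1 at chr7:13990653-13990952 and chr7:13990657-13990956 overlap and hold the same sites, so the windows are not independent. CCGGAAGT (4.14% of all promoters), TGANTCA (7.71%) and the CArG box (1.29%) were in 0 of the 14 windows. The window below is the one of ETV1 with both an ETS core, at bases -135 to -131 from the start, and a CIC octamer, at -125 to -118, which are in capitals. It lies on the minus strand at chr7:13991376-13991675.
ETV1: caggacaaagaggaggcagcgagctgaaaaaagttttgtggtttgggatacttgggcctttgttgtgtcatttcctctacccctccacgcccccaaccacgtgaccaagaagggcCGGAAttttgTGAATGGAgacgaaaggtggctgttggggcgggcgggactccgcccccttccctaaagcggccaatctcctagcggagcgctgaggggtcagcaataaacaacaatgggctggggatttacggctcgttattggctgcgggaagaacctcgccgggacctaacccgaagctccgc
These matches describe letters in this window, and no binding was measured.

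**Figure D2:**
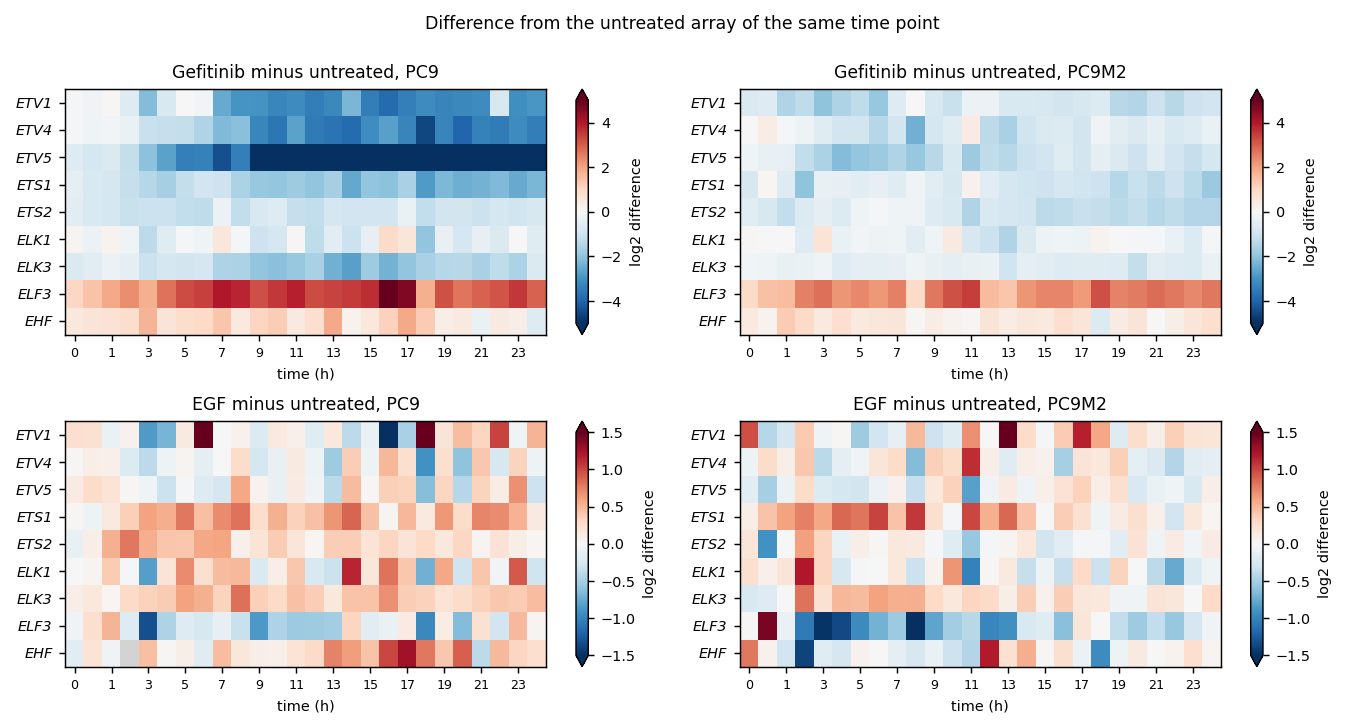
Log2 difference from the untreated array of the same slide, for the 9 genes (rows) and the 26 time points (columns), with gefitinib (top, scale ± 5) or EGF (bottom, scale ± 1.5) in PC9 and PC9M2, blue for lower and red for higher, grey for a removed value. The 3 PEA3 genes darken with time under gefitinib in PC9, and the ELF3 row is red in both lines.

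ETS1 and ETS2, which ERK phosphorylates on a conserved site, were both lower with gefitinib but differed in how the lines compared. ETS1 ran from 8.69 through 9.20 to 10.46 in untreated PC9 and from 6.40 through 7.56 to 8.82 with gefitinib, so the courses overlapped little. In PC9M2 it ran from 6.41 through 7.62 to 8.24 untreated and from 4.92 through 6.71 to 7.47 with gefitinib. The level of untreated PC9M2 was thus near that of PC9 with the drug. ETS1 fell by 1.75 ± 0.12 in PC9 (adjusted p = 4.83e-13), 3.35-fold and lower at 26 of 26 time points. In PC9M2 it fell by 0.82 ± 0.10 (adjusted p = 3.86e-08), lower at 24 of 26. Its other 2 probes gave -1.62 and -1.09 in PC9 and -0.80 and -0.66 in PC9M2. ETS1 was at least 2-fold lower from 7 h on in PC9 and from 17 h on in PC9M2. The late minus early change was -1.19 ± 0.18 in PC9 (adjusted p = 3.57e-06), against -0.57 ± 0.20 in PC9M2 (adjusted p = 0.028). With the probe of highest mean signal in its place, these 2 changes were 0.04 (adjusted p = 0.89) and 0.16 (adjusted p = 0.656), so this part of the ETS1 course depends on the probe.

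ETS2 fell in both lines, by amounts that lay close together. Without treatment it ran from 11.73 through 12.38 to 13.43 in PC9 and from 12.78 through 13.40 to 14.21 in PC9M2. With gefitinib it ran from 10.61 through 11.57 to 12.39 in PC9 and from 12.04 through 12.37 to 13.31 in PC9M2. It was lower at all 26 time points in each line, and the mean difference was -0.93 ± 0.06 in PC9 (adjusted p = 7.92e-14), against -0.91 ± 0.09 in PC9M2 (adjusted p = 3.06e-10). The fall was present early in PC9, -0.99 ± 0.26 (SD, n = 8) over 0 to 6 h, and stayed near that value with -0.91 ± 0.23 (SD, n = 10) over 15 to 24 h. In PC9M2 it deepened from -0.59 ± 0.35 (SD, n = 8) to -1.31 ± 0.12 (SD, n = 10), a change of -0.71 ± 0.15 (adjusted p = 3.75e-04). The 2 other ETS2 probes gave -1.17 and -1.10 in PC9 and -0.96 and -0.94 in PC9M2. Of its 2 promoter windows, 1 holds the ETS core, in capitals at -245 to -241 from the start, on the plus strand at chr21:38804933-38805232, and is shown because ETS2 is the falling member whose mean effects in the lines lay closest together.
ETS2: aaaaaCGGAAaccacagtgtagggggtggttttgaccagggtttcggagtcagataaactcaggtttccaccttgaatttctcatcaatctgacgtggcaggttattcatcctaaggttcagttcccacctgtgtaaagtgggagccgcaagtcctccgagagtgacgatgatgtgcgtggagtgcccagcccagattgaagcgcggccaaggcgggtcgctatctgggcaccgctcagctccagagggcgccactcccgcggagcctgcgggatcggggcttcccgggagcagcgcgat

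Of the ternary complex factors, ELK3 responded clearly and ELK1 weakly. ELK3, which represses its targets until ERK phosphorylates it, ran from 8.33 through 8.78 to 9.25 in untreated PC9 and from 5.74 through 7.31 to 8.72 with gefitinib. In PC9M2 it ran from 8.12 through 8.67 to 9.20 and from 7.41 through 8.08 to 8.87. It fell by 1.44 ± 0.12 in PC9 (adjusted p = 3.21e-11), 2.70-fold, and by 0.51 ± 0.05 in PC9M2 (adjusted p = 1.16e-09), lower at 26 of 26 time points in both. The difference was deepest in the middle of the PC9 course, -1.97 ± 0.41 (SD, n = 8) over 7 to 14 h, against -0.72 ± 0.27 (SD, n = 8) before and -1.58 ± 0.43 (SD, n = 10) after. ELK1, the activating factor of this pair, had wide and overlapping courses, from 6.44 to 8.59 untreated and from 5.61 to 8.09 with gefitinib in PC9. Its falls of 0.40 ± 0.12 in PC9 (adjusted p = 0.00504, 20 of 26 time points), against 0.28 ± 0.09 in PC9M2 (adjusted p = 0.0066, 21 of 26) were the smallest of the 9 genes. They were not called with scaling to the 75th percentile, where they were -0.22 (adjusted p = 0.105) and -0.15 (adjusted p = 0.139), nor with scan day as a random block (adjusted p = 0.06 and 0.0512). In PC9M2 the fall of ELK1 was also not called without pairing (adjusted p = 0.111) or with time points 3 h apart (-0.12, adjusted p = 0.501).

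The 2 epithelial factors went the other way. ELF3 ran from 8.97 through 9.57 to 11.21 in untreated PC9 and from 11.46 through 12.87 to 14.25 with gefitinib, and no treated array reached down into the untreated range. In PC9M2 it ran from 10.61 through 11.41 to 12.57 untreated and from 12.29 through 13.77 to 14.90 with gefitinib, with a narrow overlap. It rose by 3.08 ± 0.18 in PC9 (adjusted p = 1.21e-14), 8.43-fold, and by 2.30 ± 0.12 in PC9M2 (adjusted p = 3.79e-15), 4.92-fold, and was higher at all 26 time points in each line. The rise was there at 0 h, after 2 h of drug, with 1.04 in PC9 and 0.96 in PC9M2, while ETV4 differed by -0.05 and -0.03 at that time. Other members were lower at 0 h already, in PC9 ELK3 with -0.71, ETV5 with -0.66, ETS2 with -0.52 and ETS1 with -0.47, and in PC9M2 ETS1 with -0.79 and ETV1 with -0.71. In PC9 ELF3 was at least 2-fold higher at every time point, and the effect grew from 2.24 ± 0.86 (SD, n = 8) over 0 to 6 h to 3.35 ± 0.93 (SD, n = 10) over 15 to 24 h (adjusted p = 0.00816). In PC9M2 it was at least 2-fold higher at 24 of 26 time points, and the late minus early change of 0.58 ± 0.28 was not called (adjusted p = 0.106). The promoter window of ELF3, on the plus strand at chr1:202010337-202010636, is shown as that of the member that rose most, and it holds 0 of the 5 patterns, so it has no capitals.
ELF3: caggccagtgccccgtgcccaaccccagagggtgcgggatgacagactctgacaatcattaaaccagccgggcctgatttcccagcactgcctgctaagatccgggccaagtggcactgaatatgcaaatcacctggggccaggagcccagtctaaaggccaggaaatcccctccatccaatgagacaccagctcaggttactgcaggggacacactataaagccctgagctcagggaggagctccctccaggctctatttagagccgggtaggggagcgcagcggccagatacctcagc

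EHF rose less and with overlap between the courses. It ran from 8.72 through 9.14 to 10.64 in untreated PC9 and from 9.30 through 10.06 to 11.02 with gefitinib, and from 8.71 through 9.84 to 10.73 and from 9.09 through 10.41 to 11.14 in PC9M2. The mean rise was 0.76 ± 0.11 in PC9 (adjusted p = 1.07e-06), against 0.46 ± 0.07 in PC9M2 (adjusted p = 3.64e-06), and in each line 24 of 26 time points showed it. Counting the main fit, 13 of 14 fits called the rise in PC9M2. Over these fits its smallest size was 0.34 and its highest adjusted p 0.0616. In PC9 the rise was 0.86 ± 0.37 (SD, n = 8) over 0 to 6 h and 0.54 ± 0.74 (SD, n = 10) over 15 to 24 h, and at 24 h EHF was lower with gefitinib than without, with a difference of -0.63. Within single scan days, the mean gefitinib difference of each of the 9 genes had the same sign on 8 of 8 days in PC9. In PC9M2 this held on 9 of 9 days for 8 genes and on 8 of 9 days for ELK1.

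The study asked how the resistant cells differ from their parent, and the difference of the gefitinib effects, tested at matched time points, separated the members. Limma called 6 of 9, against 33.9% of all tested genes, of which 16.9% were higher and 17.0% lower in PC9M2. For 5 of the 6 the fall was smaller in PC9M2, by 3.69 ± 0.43 for ETV5 (adjusted p = 1.79e-07), 1.80 ± 0.25 for ETV4 (adjusted p = 2.07e-06), 1.23 ± 0.30 for ETV1 (adjusted p = 0.00189), 0.93 ± 0.11 for ELK3 (adjusted p = 3.71e-07) and 0.92 ± 0.12 for ETS1 (adjusted p = 8.94e-07). ETV4, ETV5 and ELK3 showed this direction at 25 of 26 time points, ETS1 at 24 and ETV1 at 18. For ELF3 the rise was smaller in PC9M2, with -0.78 ± 0.19 (adjusted p = 0.00209, 22 of 26 time points). The remaining genes were not called. ETS2 differed by 0.01 ± 0.10 (adjusted p = 0.932), ELK1 by 0.13 ± 0.16 (adjusted p = 0.579) and EHF by -0.30 ± 0.14 (adjusted p = 0.095). With normexp the difference of ETV4 was 1.05 (adjusted p = 3.11e-06). The values of ETV5 and ETV1 rest on signals near background in PC9. With a floor of 16 or with normexp background correction the difference of ETV5 was 2.79 (adjusted p = 1.53e-08) or 0.71 (adjusted p = 2.37e-07), and that of ETV1 was -0.15 (adjusted p = 0.489) or -0.03 (adjusted p = 0.546). With standard errors inflated for the autocorrelation of successive time points, ETV5 had an adjusted p of 0.0625 and ETV1 of 0.212, and with time points 3 h apart ELF3 differed by -0.32 (adjusted p = 0.542) and ETV1 by 1.36 (adjusted p = 0.0989).

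**Figure D3:**
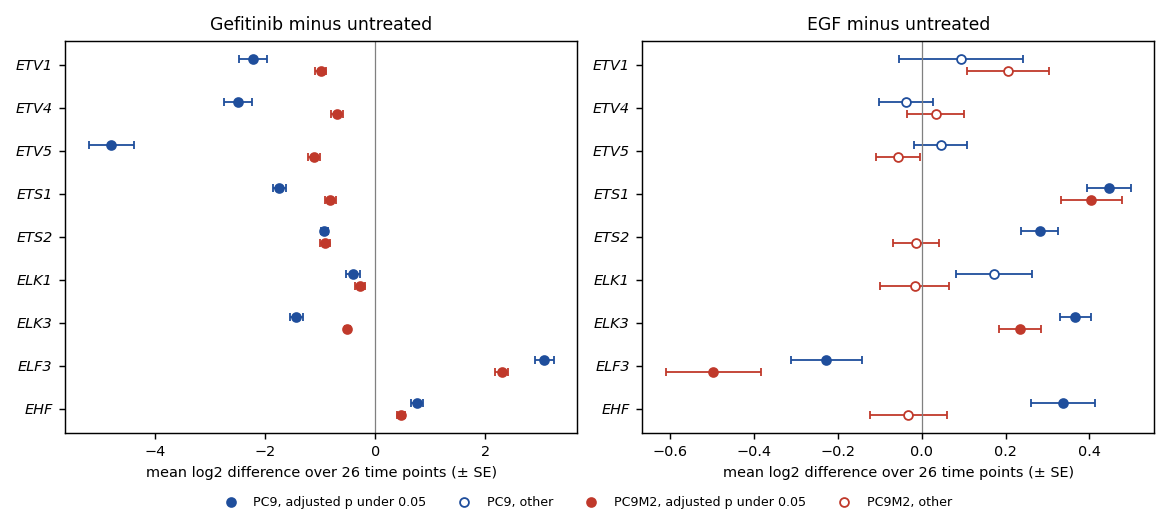
Mean log2 difference ± SE over 26 time points (25 for EHF with EGF in PC9) of gefitinib (left) and EGF (right) from no treatment, in PC9 (blue) and PC9M2 (red), with filled points for an adjusted p below 0.05. ETV5 spans -4.80 in PC9, where 15 of 26 treated arrays were not above background, and -1.12 in PC9M2, ETS2 nearly coincides at -0.93 and -0.91, and the EGF axis covers a much narrower range.

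Without treatment, the lines differed in 7 of the 9 genes, against 68.1% of all tested genes. ETS1 was lower in PC9M2, with a difference of -1.80 ± 0.12 (adjusted p = 1.85e-13), 3.49-fold, at 26 of 26 time points, and on the probe used the 2 courses did not overlap. Its other probes differed by -1.23 and -0.86, and on each of them the courses overlapped. Also lower were ETV4 (-0.54 ± 0.10, adjusted p = 3.58e-05) and ELK1 (-0.60 ± 0.18, adjusted p = 0.00446). Higher in PC9M2 were ETV1 by 1.60 ± 0.16 (adjusted p = 5.06e-10, 26 of 26 time points), ELF3 by 1.54 ± 0.19 (adjusted p = 5e-08) and EHF by 0.55 ± 0.13 (adjusted p = 4.27e-04). The second ETV1 probe gave 1.62, with only 12 of 26 untreated PC9 arrays above background. On the probe used 21 of 26 were above it, and with normexp the difference was 0.28 (adjusted p = 1.47e-10). The line difference of ELF3 was 3.15 at 12 h and -0.60 at 24 h, so its direction was not held to the end of the course. ETS2 differed by 0.97 ± 0.08 (adjusted p = 2.97e-11) on the probe used, but by -0.13 and 0.06 on its 2 other probes, so no line difference is stated for it. ETV5 (-0.07 ± 0.09, adjusted p = 0.479) and ELK3 (-0.15 ± 0.08, adjusted p = 0.0821) were not called, and ELK3 was called without the 11 h time point (-0.17, adjusted p = 0.0448). The mean of both ETV5 probes gave -0.33 (adjusted p = 0.0132).

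With gefitinib, the order of the lines changed for ETV4. All members but EHF were called, 8 of 9 against 65.0% of all tested genes. ETV5 was higher in PC9M2 by 3.61 ± 0.44 (adjusted p = 2.66e-08), ETV1 by 2.83 ± 0.21 (adjusted p = 1.88e-12), ETV4 by 1.26 ± 0.20 (adjusted p = 3.39e-06) and ELK3 by 0.78 ± 0.14 (adjusted p = 2.79e-05). The PC9 side of ETV5 and ETV1 was mostly not above background, and with normexp their differences were 0.69 (adjusted p = 1.71e-08) and 0.25 (adjusted p = 1.6e-08). The second ETV5 probe gave 2.12 and the second ETV1 probe 2.41, with 9 and 4 of 26 PC9 arrays above background. ETV4, which was lower in PC9M2 without treatment, was thus higher under the drug, at 21 of 26 time points. With normexp its difference under the drug was 0.62 (adjusted p = 1.28e-05). ETS1 was still lower in PC9M2 (-0.88 ± 0.18, adjusted p = 8.17e-05), as was ELK1 (-0.47 ± 0.18, adjusted p = 0.0211). ELF3 was still higher (0.77 ± 0.18, adjusted p = 4.43e-04), while ETS2 differed by 0.99 on the probe used and by 0.08 and 0.22 on the others. Successive time points were correlated, and with standard errors inflated for this only 2 of the members were called. The line differences share the limit that the lines were scanned in separate periods.

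In untreated cells, most members changed over time. A spline over time was called for 6 of the 9 genes in untreated PC9, against 66.3% of all tested genes, and not for ETV4, ETV5 and ELK3. The fitted curve spanned 0.59 for ETV4 (adjusted p = 0.234) and 0.74 for ETV5 (adjusted p = 0.184). Both were called on other probes, ETV4 with the probe of highest mean (0.79, adjusted p = 0.0137) and ETV5 with the mean of all probes (0.81, adjusted p = 0.0248). ETV1 was called (adjusted p = 2.82e-05), with a range of 2.53 that includes arrays not above background and was 1.39 with a floor of 16 and 0.24 with normexp. The curve spanned 2.13 for ELF3 (adjusted p = 3.20e-06) and 1.74 for ETS1 (adjusted p = 3.23e-08). In untreated PC9M2 7 of 9 were called, against 67.1%, all but ETV4 and EHF, and the fitted curves of the 9 genes spanned 0.51 to 1.32, with 0.91 for ETV5 (adjusted p = 0.00244). The untreated course of ELF3 in PC9 sank from 10.67 at 0 h to 8.97 at 7 h and reached 11.21 at 24 h, and the median fitted range over all genes was 0.99 in PC9 and 0.98 in PC9M2.

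EGF had small effects on these genes in comparison, and none was called for the PEA3 group. In PC9 limma called 5 of 9 members, against 25.4% of all tested genes, and in PC9M2 3 of 9, against 9.09%. ETS1 rose in both lines, by 0.45 ± 0.05 in PC9 (adjusted p = 3.41e-07, 25 of 26 time points) and by 0.40 ± 0.07 in PC9M2 (adjusted p = 4.10e-04, 23 of 26). Without the 0.5 h time point the PC9M2 value was 0.40 (adjusted p = 5.03e-04). With EGF it ran from 9.12 through 9.58 to 10.84 in PC9 and from 6.84 through 8.01 to 8.75 in PC9M2, so the courses with and without EGF overlapped widely. The value of 6.84 comes from the 0.5 h array of PC9M2 that goes against its label. In PC9M2 the rise stood at 0.72 ± 0.20 (SD, n = 7) over 0.5 to 6 h and 0.09 ± 0.18 (SD, n = 10) over 15 to 24 h. The late minus early change of -0.63 narrowly missed the threshold (adjusted p = 0.0584) and passed it without the 0.5 h time point (-0.68, adjusted p = 0.019) or the 11 h time point (-0.63, adjusted p = 0.0202). In PC9 the rise was 0.40 ± 0.29 (SD, n = 7) early and 0.42 ± 0.25 (SD, n = 10) late. Limma called 0 of 9 late minus early EGF changes in either line, where 2.11% of all tested genes were called in PC9 and 0.0817% in PC9M2. At an unadjusted p below 0.05 there were 2 in PC9 (ETS2 and EHF) and 2 in PC9M2 (ETS1 and ETV1).

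ELK3 also rose with EGF in both lines, by 0.37 ± 0.04 in PC9 (adjusted p = 2.68e-08), higher at 26 of 26 time points, and by 0.24 ± 0.05 in PC9M2 (adjusted p = 0.00229, 22 of 26), or 0.25 without the 0.5 h time point (adjusted p = 7.91e-04). ETS2 rose in PC9 by 0.28 ± 0.04 (adjusted p = 1.79e-05, 25 of 26 time points), with a peak of 0.79 at 2 h. In PC9M2 it differed by -0.01. The difference of the EGF effects between the lines was called for 1 of 9 members, ETS2, with -0.30 ± 0.06 (adjusted p = 0.00556), against 1.32% of all tested genes. The 2 other ETS2 probes differed by 0.12 and 0.15 with EGF in PC9M2. EHF rose in PC9 by 0.34 ± 0.08 (adjusted p = 0.00151, 21 of 25 time points), from 0.09 ± 0.22 (SD, n = 6) over 0.5 to 6 h to 0.54 ± 0.47 (SD, n = 10) over 15 to 24 h, and differed by -0.03 in PC9M2.

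ELF3, which rose with gefitinib, was lower with EGF. In PC9M2 it fell by 0.50 ± 0.11 (adjusted p = 0.00446, 22 of 26 time points), and without the 0.5 h time point the difference was -0.57 (adjusted p = 8.44e-05). At 3 h it stood at 9.54 with EGF against 11.00 untreated. The gap was -0.74 ± 0.41 (SD, n = 8) over 7 to 14 h and -0.28 ± 0.27 (SD, n = 10) over 15 to 24 h, and it was below 0 on 9 of 9 scan days. In PC9 the fall of 0.23 ± 0.08 was close to the threshold (adjusted p = 0.0459), with its lowest difference of -1.32 at 3 h, and 6 alternatives lost it. For the PEA3 group the EGF differences lay between -0.06 for ETV5 in PC9M2 and 0.21 for ETV1 in PC9M2, and ELK1 differed by 0.17 in PC9 and -0.02 in PC9M2. The fits without pairing of time points called 1 of the 9 genes for EGF in PC9 (ELK3) and 0 in PC9M2.

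**Figure D4:**
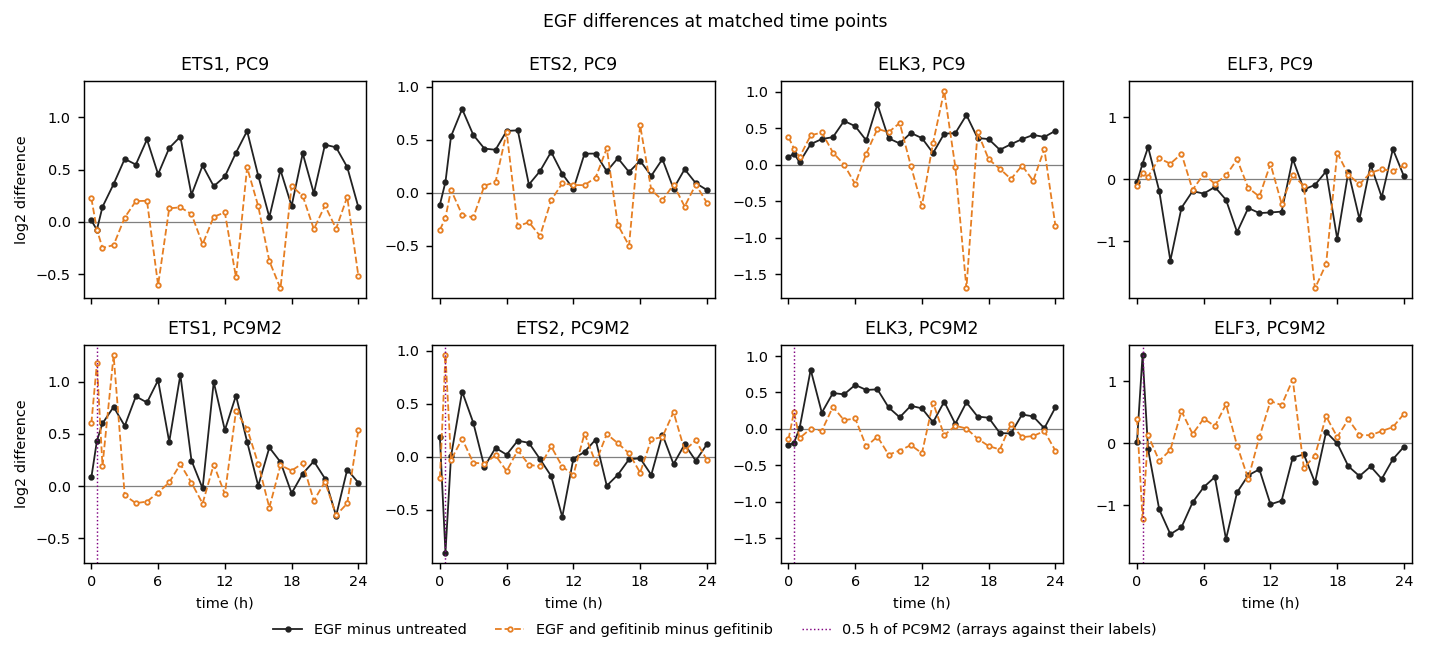
Log2 difference at each time point between EGF and no treatment (solid) and between EGF with gefitinib and gefitinib alone (dashed) for ETS1, ETS2, ELK3 and ELF3 in PC9 (top) and PC9M2 (bottom), against time in hours, with a dotted line at the 0.5 h arrays of PC9M2 that go against their labels. The solid ETS1 and ELK3 curves lie mostly above 0 and the solid ELF3 curve of PC9M2 below 0, while the dashed curves scatter around 0.

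With gefitinib present, few EGF differences of the members passed the test. In PC9 limma called 0 of 9 members and 6 of all tested genes (0.0446%), and the methods' t-test called 0 as well. At an unadjusted p below 0.05 there was 1 member, ETV5, with 0.41 ± 0.13 (adjusted p = 0.215). In PC9M2 it called 1 of 9, against 3.15%, namely ETV5 with -0.20 ± 0.05 (adjusted p = 0.0435), which 8 alternatives did not call. ETV5 was above background on 12 of 26 arrays of PC9 with both agents and on 11 with gefitinib alone. The difference between the EGF effect with gefitinib and the EGF effect alone was tested as well, a test chosen after the data were seen. In PC9 it was called for ETS1 (-0.48, adjusted p = 4.02e-05), EHF (-0.42, adjusted p = 0.00637) and ETS2 (-0.31, adjusted p = 0.00182), 3 of 9 against 13.0% of all tested genes. In PC9M2 it was called for ELK3 (-0.31, adjusted p = 0.00184) and ELF3 (0.66, adjusted p = 0.0112), 2 of 9 against 9.99%. Without the 0.5 h time point ELF3 gave 0.79 (adjusted p = 2.83e-05), and ETV1 was called too with -0.47 (adjusted p = 0.0184).

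The rest of the ETS family moved in both directions under gefitinib. Of 18 other ETS genes 13 were tested, of which 5 were higher, 4 lower and 4 not called in PC9 and 6, 4 and 3 in PC9M2. Of all tested genes 35.2% were higher and 37.0% lower in PC9, and 32.6% and 34.0% in PC9M2, so these counts do not set the list apart. The median of the 13 genes was 0.12 in PC9 and 0.13 in PC9M2. ELK4, the third ternary complex factor, fell by 1.46 ± 0.12 in PC9 and 0.79 ± 0.09 in PC9M2, as ELK3 did, and rose with EGF by 0.23 and 0.27. ETV7 fell by 1.07 ± 0.22 and 1.06 ± 0.22, although it was lower at only 21 of 26 time points in each line. The epithelial factors ELF5 and SPDEF rose, ELF5 by 1.02 ± 0.11 in PC9 and 0.61 ± 0.18 in PC9M2 and SPDEF by 0.52 ± 0.13 and 0.33 ± 0.13.

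Genes induced by ERK formed a list of 20, of which 19 were tested. Like the other lists, it was chosen with earlier results of these data known. In PC9 19 of 19 were lower with gefitinib, against 37.0% of all tested genes, with a median of -2.82. In PC9M2 15 were lower, against 34.0%, 0 higher and 4 not called, with a median of -0.88. DUSP6, a phosphatase that turns ERK off, fell by 6.80 ± 0.27 and 2.17 ± 0.21. SPRY4, an inhibitor of receptor signaling, fell by 4.99 ± 0.13 and 1.61 ± 0.25, and FOSL1, an AP-1 subunit, fell by 4.35 ± 0.23 and 2.77 ± 0.13. EGR1, an immediate early gene with sites for the ELK factors, fell by 3.78 ± 0.18 in PC9 and differed by 0.60 ± 0.31 in PC9M2 (adjusted p = 0.0907). The difference of the gefitinib effects, PC9M2 minus PC9, was positive and called for 16 of the 19 genes, against 16.9% of all tested genes. EGR1, with 4.37, was among them, although it was not lower with the drug in PC9M2. The late minus early change in PC9M2 was positive and called for 14 of the 19, with a median of 0.90, against 2697 of all 13458 tested genes. Among the members it was called only for ETS1, ETS2 and ELK3, each of which fell further, 3 of 9 against 39.8% of all tested genes. In PC9 it was called for 6 of 9, against 52.1%.

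Regulators of the PEA3 proteins and partners of the ELK factors formed another list, with 12 of 12 genes tested, of which 7 were lower and 2 higher in PC9 and 5 lower and 2 higher in PC9M2. Of all tested genes 37.0% were lower and 35.2% higher in PC9, and 34.0% and 32.6% in PC9M2. TRIB2 and TRIB1, adaptors of the COP1 ubiquitin ligase that degrades ETS proteins, fell by 1.55 ± 0.09 and 1.35 ± 0.11 in PC9 and by 0.77 ± 0.09 and 0.26 ± 0.08 in PC9M2. SRF, which binds DNA with the ELK factors, fell by 0.68 ± 0.14 and 0.43 ± 0.10. MRTFB, a coactivator that competes with them for SRF, rose by 0.74 ± 0.08 and 0.63 ± 0.06. Of 8 target genes of ETS factors 5 were tested, and they did not follow 1 direction. In each line 3 were higher and 2 lower, beside the shares of all tested genes just given. MMP1, a collagenase gene, fell with gefitinib by 1.34 ± 0.15 in PC9 and 1.02 ± 0.12 in PC9M2 and rose with EGF by 1.89 ± 0.21 and 1.24 ± 0.14. MMP14, a membrane-bound metalloproteinase, rose with gefitinib by 1.99 ± 0.19 and 1.20 ± 0.16, MMP7, or matrilysin, by 0.69 ± 0.06 and 1.15 ± 0.18, and MMP9, a gelatinase, by 0.37 ± 0.09 and 0.26 ± 0.06.

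Across all 208 arrays, with the mean of each line subtracted, ETV4 and ETV5 had closely alike patterns (r = 0.92). The gene most like ETV4 was XDH (r = 0.93), followed by ETV5 and ANKS6 (r = 0.92 each), and the genes most like ETV5 were ETV4, RAI14 (r = 0.91) and FOXD1 (r = 0.90). ETV5 correlated with ELK3 at 0.87, with ETV1 at 0.73 and with ETS1 at 0.73, and inversely with ELF3 at -0.76 and EHF at -0.49. Most like the others were WDFY2 for ETV1 (r = 0.81), LONRF3 for ETS1 (r = 0.90), SOCS3 for ETS2 (r = 0.87), MLLT1 for ELK1 (r = 0.89), NRP1 for ELK3 (r = 0.90), PIK3IP1 for ELF3 (r = 0.96) and CREBRF for EHF (r = 0.77). The arrays share the contrast of drug and no drug and the drift over time, so these correlations describe joint patterns and carry no p.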

How the data were processed

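RNA of PC9 and PC9M2 cells was hybridised to 208 one-colour Agilent 44K arrays, 26 per course. The authors deposited 1 scanner file per array with signal intensities in linear scanner units, corrected for local background by the scanner software (Feature Extraction 10.5.1.1, build hg18, per the file headers) and not normalised between arrays, and a table of intensities that they had quantile normalised with control spots included. Here the scanner intensities of the non-control spots were quantile normalised, and their log2 was taken after a floor of 1. Spots marked as outliers were removed (0.0794% of tested values). Among the members these were ETV5 in PC9 with EGF and gefitinib at 15 h and EHF in PC9 with EGF at 2 h. Of 41000 probes, 25436 matched 1 gene symbol by RefSeq accession, and 12 matched 2. Each of the 17252 genes was read on its probe of largest variance. The 13458 genes well above background on at least 13 of 26 arrays of a course were tested. On an array, 24464 to 35938 features were above background (median 29879). PC9 arrays had 183 to 1616 saturated features and PC9M2 arrays 0, none of them member probes. The number of arrays limits the precision.

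Differences at matched time points were tested with limma 3.58.1 in R 4.3.3 (two-sided, Benjamini-Hochberg over 13458 genes, threshold 0.05), as the study's methods pair the courses by time point. Change over time was tested with a natural cubic spline of 4 degrees of freedom. The script was tested on simulated data. The pairing comes from the shared slide and time. The deviations of untreated and gefitinib arrays of a slide from their course means correlated with a median r of 0.28 in PC9 (21 of 26 pairs above 0.1) and 0.36 in PC9M2 (25 of 26).

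The members and gene lists were chosen with earlier results of these data known. All 9 members are named, of each other list the up to 4 called genes with the largest gefitinib difference in PC9, and for each member the 1 gene, or for ETV4 and ETV5 the 3 genes, of highest correlation. Alternatives tried were normexp correction (offset 50), scaling to the 75th percentile, the authors' deposited normalised intensities, the mean of all probes, no filter, the probe of highest mean, a floor of 16, unpaired courses, time points 3 h apart, standard errors inflated for autocorrelation, scan day as a random block and the methods' paired t-test. Unpaired fits, inflated errors and the t-test were not run for late minus early changes or for change over time. Time points 3 h apart were not run for late minus early changes. The arrays without the 0.5 h or 11 h time point of PC9M2 and the test of the EGF effect with gefitinib against that without were added after seeing the data.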

Additional observations from a re-analysis of the deposited data

Results flagged for a closer look

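The effect of gefitinib differed between the lines for 6 members, by limma's test of the difference of the effects at matched time points. The difference, PC9M2 minus PC9 on the log2 scale, was 3.69 for ETV5, 1.80 for ETV4, 1.23 for ETV1, 0.92 for ETS1, 0.93 for ELK3 and -0.78 for ELF3. For ETV4 it was 1.05 with normexp correction, still called. For ETV1 it was -0.15 with a floor of 16 and -0.027 with normexp correction, and not called. For ETV5 it was 2.79 with a floor of 16 and 0.71 with normexp, both called, but not called with errors inflated for autocorrelation (adjusted p = 0.0625). The effect of EGF differed between the lines for ETS2, by -0.30, and this was not called without pairing, with time points 3 h apart or with scan day as a random block. The arrays of the lines were scanned in separate periods, and the part of scanning in these differences was not tested. Each array was compared with those of its slide and of adjacent time points, but no formal test for outlying arrays was run. The highest such correlation was lowest for untreated PC9M2 at 11 h (0.93), followed by PC9 with gefitinib at 16 h (0.96), which was kept in all fits that use every time point.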

How the results depend on the processing

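The counts of called members for the gefitinib effect (9 of 9 in each line, 7 to 9 under the alternatives), for its difference between the lines and for the untreated line difference stayed within 1.5 times in every alternative run, and for single members 1724 values kept direction and side of the threshold. The direction of every called gefitinib effect of a member was kept in every alternative. Without pairing of time points (no replicate block), the number of members called was 1 instead of 5 for EGF in PC9, 0 instead of 3 for EGF in PC9M2, 0 instead of 1 for EGF under gefitinib in PC9M2, 0 instead of 3 and 0 instead of 2 for the change of the EGF effect by gefitinib in PC9 and PC9M2, and 0 instead of 1 for the difference of the EGF effects. With time points 3 h apart, which leaves fewer of them, these 6 counts were 2, 0, 0, 0, 0 and 0, and change over time was called for 0 members in either line (58 and 1390 of all genes). With standard errors inflated for autocorrelation, 1 member was called for EGF in PC9M2, 0 for EGF under gefitinib in PC9M2, 1 for the change of the EGF effect in PC9M2 and 2 for PC9M2 minus PC9 with gefitinib. With scan day as a random block, 1 was called for the late minus early EGF effect in PC9, 1 for the late minus early gefitinib effect in PC9M2, 3 for change over time in PC9M2 and 0 for the difference of the EGF effects. EGF under gefitinib in PC9M2 had 0 members called with scaling to the 75th percentile, normexp, the mean of all probes, no filter and the methods' t-test. The late minus early gefitinib effect in PC9M2 had 1 with scaling to the 75th percentile. The late minus early EGF effect had 1 in PC9 with normexp, and 1 in PC9M2 with the mean of all probes, a floor of 16, and without the 0.5 h or the 11 h time point.

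Signs turned for member values that were, apart from the ETV1 gefitinib difference and the ETS1 late minus early changes, not called in the main analysis. With scaling to the 75th percentile these were EGF on ETV1 in PC9 (-0.081), EGF on ETS2 in PC9M2 (0.0067), the gefitinib difference between lines of ETS2 (-0.041), late minus early gefitinib on ELK1 in PC9 (0.017) and PC9M2 (0.021), and EGF under gefitinib on ELK3 in PC9 (-0.0033). With normexp they were the gefitinib difference of ETV1 (-0.027) and ETS2 (-0.047), late minus early gefitinib on ETV1 in PC9M2 (-0.059), the change of the EGF effect on ETV5 in PC9 (-0.012), EGF under gefitinib on ETS1 in PC9 (0.0020) and EGF on ELK1 in PC9M2 (0.0085). With a floor of 16 it was the gefitinib difference of ETV1 (-0.15). With the probe of highest mean they were late minus early EGF on ETV4 (-0.044) and ETS1 (-0.32) in PC9, late minus early gefitinib on ETV4 in PC9M2 (0.011) and on ETS1 in PC9 (0.035) and PC9M2 (0.16), and EGF under gefitinib on ETS1 in PC9 (0.059). With the mean of all probes they were late minus early EGF on ETV1 (-0.24) and ETS1 (-0.048) in PC9, EGF on ETV5 in PC9 (-0.0023) and ETS2 in PC9M2 (0.087), EGF under gefitinib on ETS1 in PC9 (0.029) and late minus early gefitinib on ETS2 in PC9 (-0.14). With scan day as a block it was late minus early EGF on ETS1 in PC9 (-0.0003). With time points 3 h apart they were the difference of the EGF effects of ETV1 (-0.28), ETV5 (0.061) and ELK1 (0.14), EGF on ETV5 (-0.083) and ELK1 (-0.16) in PC9 and on ETS2 (0.029) and EHF (0.089) in PC9M2, EGF under gefitinib in PC9 on ETS2 (0.075), ELK1 (0.15), ELK3 (-0.042) and ELF3 (0.16) and in PC9M2 on ETS2 (-0.021) and ELK1 (-0.099), and the change of the EGF effect on ELK1 in PC9 (0.32) and on ETS2 (-0.049) and ELK1 (-0.072) in PC9M2. Without the 11 h time point they were EGF in PC9M2 on ETV4 (-0.010), ETS2 (0.0085) and ELK1 (0.023), and without the 0.5 h time point EGF in PC9M2 on ETS2 (0.022). The cause was not tested.

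Across all genes, calls moved by over 1.5 times mostly without pairing and with time points 3 h apart, which gave 400 and 552 instead of 3417 for EGF in PC9, 86 and 15 instead of 1223 for EGF in PC9M2, 0 and 119 instead of 424 for EGF under gefitinib in PC9M2, 23 and 0 instead of 1749 for the change of the EGF effect in PC9, 12 and 111 instead of 1344 in PC9M2, 2044 and 1040 instead of 4563 for the difference of the gefitinib effects and 5 and 0 instead of 178 for that of the EGF effects. Time points 3 h apart gave 58 instead of 8919 and 1390 instead of 9035 for change over time in PC9 and PC9M2, and 5980 instead of 9166 for the untreated lines. Inflated errors gave 1034 and 562 for the change of the EGF effect in PC9 and PC9M2, 549 for EGF in PC9M2, 112 for EGF under gefitinib in PC9M2, 2880 for the difference of the gefitinib effects and 55 for that of the EGF effects. Scan day as a block gave 792 instead of 284 for late minus early EGF in PC9, 5234 for change over time in PC9M2 and 52 for the difference of the EGF effects, for which normexp gave 282. Without the 0.5 h time point there were 965 for EGF under gefitinib and 2137 for the change of the EGF effect in PC9M2. Late minus early EGF in PC9M2 had 11 calls, and 9 to 153 under the alternatives. EGF under gefitinib in PC9 had 6 genes higher and 0 lower, and 2 and 2 with scaling to the 75th percentile, and the late minus early EGF effect in PC9M2 had 1 higher and 10 lower, and 19 and 33 with normexp. Signals near background limit ETV1 and late ETV5 in PC9. Leaving out single replicates did not apply, since each group has 26 time points.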
